A study of Mus musculus with 4 samples.

Results

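The genes described here are Auts2, Dmd, Macrod2, Magi2, Wwox, Pard3b, Fhit, Immp2l, Lrp1b and Csmd1, 10 of the 5614 genes that carried transposon reads in at least 1 of 2 pooled mutant libraries. They were chosen by length, several of them lying at known common fragile sites, and partly selected on their reads per gene in these same libraries, so their reads are given as a description with no test. The material was genomic DNA from 4 samples, 2 in each library, of neural stem cell-like cells of the mouse that keep a haploid chromosome set and have a 129Sv background. These cells were made from haploid embryonic stem cells through embryoid bodies, in N2B27 medium with FGF2, EGF, the BMP receptor inhibitor LDN193189, the activin and TGF-beta receptor inhibitor SB431542 and a ROCK inhibitor (Y-27632, Thiazovivin or both). All 4 samples share differentiation day 10, FGF2 and EGF at 20 ng/ml each, LDN193189 at 300 nM and SB431542 at 10 uM. Transfection delivered 20 ug of a plasmid with the piggyBac gene trap beside 10 ug of a transposase plasmid. Cells with a trapped gene were selected with G418. No treatment, genotype or time differs between the libraries in the labels, which tell the samples apart only by numbers in their titles and by the table of their library. Each table pools its samples, so no value has a replicate, and because DNA was measured the cell type could not be checked against expressed markers.

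A gene trap is a DNA cassette that reports and disrupts a gene when it lands in an intron of a transcribed gene in the right orientation, and the drug selection keeps only cells in which this happened. Common fragile sites are stretches of chromosome that break when DNA replication is slowed. Many of them lie in very long genes, where a transcription unit takes most of a cell cycle to read through and replication origins are sparse. FHIT and WWOX lie at the best known human fragile sites, and Fhit and Wwox are their mouse counterparts. In libraries of inserted DNA, such genes also offer more target sequence than short ones, most of it intron.

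The piggyBac transposon inserts at the sequence TTAA, which reads the same on both strands, and the sequences below show how often it occurs just upstream of the members' start sites. Of the 10 members, 6 (Pard3b, Macrod2, Magi2, Immp2l, Fhit and Dmd) matched the RefSeq promoter windows of build GRCm38.p6, with 10 windows in all. Only the 250 bases upstream of the start were searched. TTAA was present in 4 of these 10 windows (40%) with 9 matches in all, against 49.0% of all 32851 windows of the same length. The 2 windows of Macrod2, both without TTAA, are nearly the same sequence, and 5 of the 9 matches lie in 1 Magi2 window. The shown windows are the upstream sequence of Pard3b, 2 alternative starts of Magi2 that differ in TTAA, and an internal start of Dmd, 5′ to 3′ on the + strand, with TTAA in capitals.
Pard3b, chr1:61638574-61638823: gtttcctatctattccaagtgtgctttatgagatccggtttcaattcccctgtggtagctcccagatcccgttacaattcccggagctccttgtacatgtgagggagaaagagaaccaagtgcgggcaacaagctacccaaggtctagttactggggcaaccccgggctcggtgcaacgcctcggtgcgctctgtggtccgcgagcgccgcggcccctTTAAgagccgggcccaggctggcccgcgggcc
Magi2, chr5:19226796-19227045: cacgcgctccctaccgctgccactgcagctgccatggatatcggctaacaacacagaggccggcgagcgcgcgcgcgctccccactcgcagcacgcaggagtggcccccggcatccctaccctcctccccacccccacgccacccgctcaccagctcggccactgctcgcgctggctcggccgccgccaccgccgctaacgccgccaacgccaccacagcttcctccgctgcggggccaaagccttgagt
Magi2, chr5:19907268-19907517: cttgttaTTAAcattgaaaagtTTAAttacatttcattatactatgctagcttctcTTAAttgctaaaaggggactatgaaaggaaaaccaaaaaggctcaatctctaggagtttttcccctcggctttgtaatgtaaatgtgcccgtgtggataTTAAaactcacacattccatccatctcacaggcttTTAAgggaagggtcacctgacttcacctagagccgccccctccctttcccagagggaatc
Dmd, chrX:85048045-85048294: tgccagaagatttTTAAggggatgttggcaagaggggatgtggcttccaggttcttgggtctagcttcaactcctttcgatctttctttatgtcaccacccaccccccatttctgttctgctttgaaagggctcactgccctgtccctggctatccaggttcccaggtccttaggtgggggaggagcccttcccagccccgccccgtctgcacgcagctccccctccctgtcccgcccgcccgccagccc
The first Magi2 window had 72% G and C and 0 TTAA, while the second had 41.2% G and C and 5 TTAA, a number reached by 1.46% of all windows. The Pard3b and Dmd windows had 60% G and C and 1 TTAA each. The deposited tables give reads per gene without positions, so no read can be placed at these letters, and a match is no insertion.

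Library 1 held 55442 nonredundant reads in 4184 genes and library 2 held 48750 in 3168 genes. The nonredundant count leaves out repeated reads by a rule the sources used here do not give, and the redundant count, 877870 and 1300140, keeps them. The 10 genes with most reads took 16.2% of library 1 and 42.3% of library 2, and none of them was among the genes described here. All shares below are of nonredundant reads, with exact Clopper-Pearson 95% intervals that cover counting error only, since PCR copies of a molecule cannot be recognised here. A gene with more mutant cells and a gene with a better amplified junction cannot be told apart.

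All 10 genes were listed in both libraries, where 19.9% (library 1) and 15% (library 2) of 21035 genes with curated coding transcripts were listed. Of the 90 other genes among the 100 longest, 92.2% and 86.7% were listed. Together the 10 genes held 1365 reads in library 1, or 2.46% of it (95% interval 2.33 to 2.59). In library 2 they held 105 reads, or 0.215% (0.176 to 0.261). The share of the 10 genes was 11.4 times as high in library 1. Per gene, 9 members had 10 or more reads in library 1 and 3 in library 2, where 2.37% and 1.4% of all genes, and 44.4% and 20% of the other 90 longest, reached that number. The members fell apart into 6 genes with 97 to 445 reads in library 1 (Auts2, Dmd, Magi2, Macrod2, Wwox and Pard3b) and 4 with 6 to 12 (Lrp1b, Csmd1, Fhit and Immp2l), with no member in between. In library 2 these sets overlapped, at 3 to 27 and 2 to 12 reads.

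**Figure D1:**
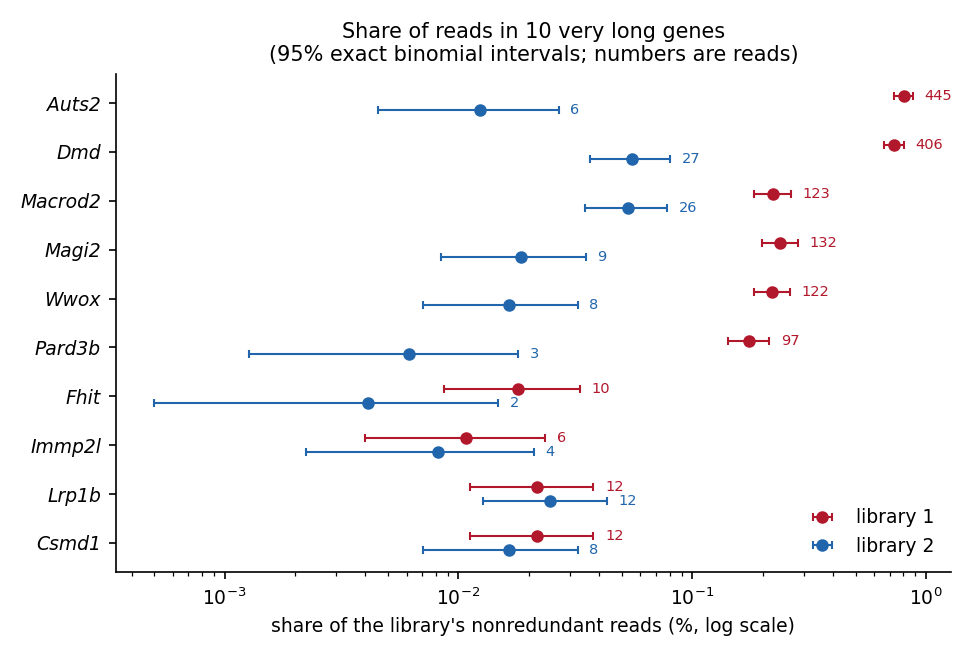
Share of each library's nonredundant reads (percent, log axis) in the 10 genes, with points for library 1 in red and library 2 in blue, bars for exact 95% binomial intervals and the read number beside each. The intervals of Auts2, Dmd, Macrod2, Magi2, Wwox and Pard3b do not meet between the libraries, while those of Fhit, Immp2l, Lrp1b and Csmd1 do.

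Auts2, a nuclear protein of neurodevelopment that joins a variant Polycomb complex, had the most reads of the 10 genes in library 1. It had 445 nonredundant reads there and 6 in library 2. Its share was 0.803% in library 1 (95% interval 0.730 to 0.880), and in library 2 it was 0.0123% (0.00452 to 0.0268). Auts2 held the 20th place among all genes of library 1 and the 373rd of library 2. Its share was 60.3 times as high in library 1, on a scale with 0.5 reads added to each count.

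Dmd encodes dystrophin, which ties the actin cytoskeleton to a membrane complex, and is the longest of all genes in the reference table. It had 406 reads in library 1 and 27 in library 2, the most of any member there. Its shares were 0.732% (0.663 to 0.807) and 0.0554% (0.0365 to 0.0806), a fold of 13.0 towards library 1. Dmd was thus high in library 1 and had the most nonredundant reads of the members in library 2, with Macrod2 next at 26. Per 100 kb, Macrod2 stood above Dmd there, at 1.30 against 1.13 reads.

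Magi2 and Pard3b encode scaffold proteins of cell junctions and cell polarity. Magi2 had 132 reads in library 1 and 9 in library 2, a share 12.3 times as high in library 1. Pard3b had 97 and 3 reads, a fold of 24.5. Their intervals lay far apart between the libraries, at 0.199% to 0.282% against 0.00844% to 0.0350% for Magi2.

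Macrod2 encodes an enzyme that removes ADP-ribose from proteins. It had 123 reads in library 1 and 26 in library 2, and its fold of 4.10 was the smallest of the 6 genes with many reads in library 1. In library 2 it was as well read as Dmd, with intervals of 0.0348% to 0.0781% and 0.0365% to 0.0806%.

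Wwox and Fhit are fragile-site genes with tumour suppressor roles. Wwox encodes an oxidoreductase with WW domains, and Fhit a hydrolase of dinucleoside polyphosphates. Wwox had 122 reads in library 1 and 8 in library 2, a fold of 12.7. Fhit, the longer gene, had 10 and 2, a fold of 3.69, and the intervals of its shares overlapped (0.00865% to 0.0332% and 0.000497% to 0.0148%). These fragile-site genes were unlike each other in library 1, with 13.4 reads per 100 kb in Wwox and 0.620 in Fhit.

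Immp2l, a subunit of the mitochondrial inner membrane peptidase, had 6 reads in library 1 and 4 in library 2. Lrp1b, a large receptor of the lipoprotein receptor family, had 12 reads in each. Csmd1, a membrane protein with CUB and Sushi domains that acts on complement, had 12 and 8. For each of these genes the intervals of the 2 libraries overlapped, which is no test of a difference. The folds were 1.27 for Immp2l, 0.879 for Lrp1b and 1.29 for Csmd1. With the 10 genes with most reads left out of the totals, those of Immp2l and Csmd1 turned to 0.875 and 0.891.

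By fold, 6 of the 10 genes had a share at least 4 times as high in library 1 and 0 in library 2. Macrod2 lost this call with the 10 leading genes left out of the totals (2.82) or with 3 reads added (3.82), which leaves 5 genes, while redundant reads gave 8. Over all 5614 listed genes, 19.8% were at least 4-fold higher in library 1 and 9.96% in library 2. Of the other 83 listed genes among the 100 longest, 18.1% and 8.43% did so. The median log2 fold over the 10 was 3.03, and over these 83 it was 0.66. Of the 236 genes with 50 or more reads in library 1, 95.3% were at least 4-fold higher there. All 6 members with that many reads are among those 236 genes. Nothing is read from these counts, because the members were chosen partly for them.

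**Figure D2:**
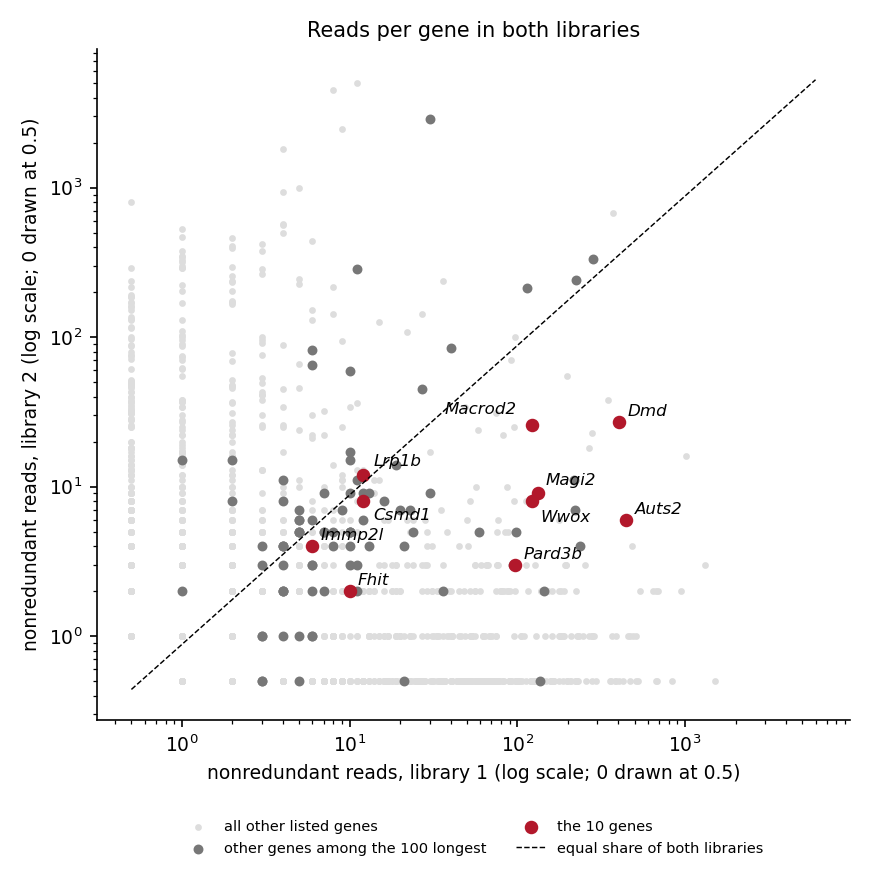
Nonredundant reads of each gene in library 1 (x axis) and library 2 (y axis), both on log scales with 0 drawn at 0.5, for the 10 genes (red), the other genes among the 100 longest (dark grey) and all other listed genes (light grey). Of the 10 genes, 6 lie at 97 or more reads in library 1 and below the dashed line of equal shares, and Lrp1b, Csmd1 and Immp2l lie near it.

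Reads can be compared between genes only per length, here as nonredundant reads per 100 kb of gene. The lengths are those of GRCm38.p6, while the submitters' processing notes name mm9, so they order genes and give approximate densities. All 10 genes are among the 100 longest of the table, from the 1st place (Dmd) over Lrp1b (5th) and Macrod2 (6th) to Wwox (72nd). They make up 1.46% of the summed length of the 21035 genes, against 2.46% of the reads of library 1 and 0.215% of those of library 2.

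In library 1, Auts2 had the highest density of the 100 longest genes, 40.2 reads per 100 kb. Dmd followed at 17.0 (7th of the 100), Wwox at 13.4 (8th), Pard3b at 9.67 (12th), Magi2 at 8.89 (14th) and Macrod2 at 6.16 (16th). So the 2.39 Mb of Dmd carried fewer reads per 100 kb than the 1.11 Mb of Auts2. The 4 genes with few reads lay together at 0.583 (Lrp1b), 0.620 (Fhit), 0.644 (Immp2l) and 0.730 (Csmd1), close to the median of 0.683 over the other 90 of the longest genes. The median over all 10 members was 7.52.

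In library 2 the densities of the 10 genes ran from 0.124 for Fhit to 1.30 for Macrod2, with Dmd at 1.13, Wwox at 0.876 and Auts2 at 0.543. By density among the 100 longest genes, Macrod2 was 15th there, Dmd 17th, Wwox 21st and Auts2 42nd, down to Fhit at the 82nd place. The median of the 10 was 0.563 and that of the other 90 longest genes 0.439. No member had 50 or more reads in library 2, while 9 of the other 90 (10%) did, led by Nrxn3 with 2878. In library 1, 11 of the other 90 (12.2%) had 50 or more reads, beside 6 of the 10 genes.

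**Figure D3:**
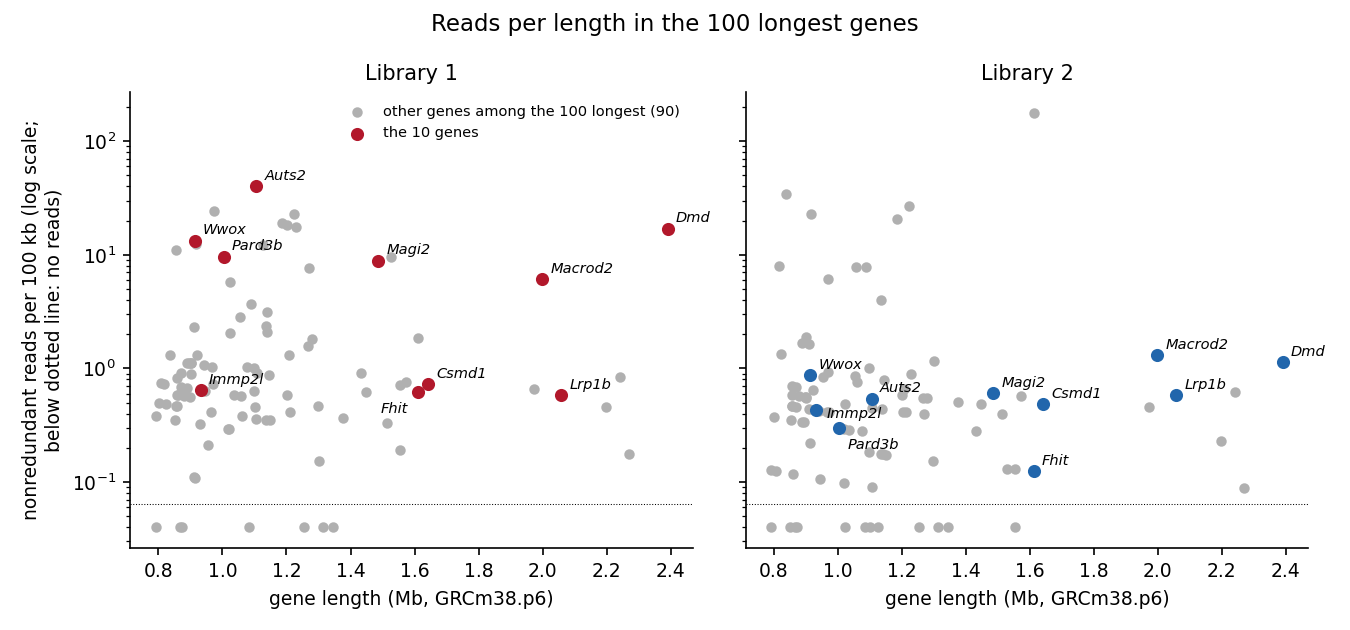
Nonredundant reads per 100 kb of gene (log axis) against gene length (Mb) for the 100 longest genes, with library 1 on the left and library 2 on the right; coloured points are the 10 genes, grey points the other 90, and points below the dotted line had no reads. In library 1 Auts2 stands highest at 40.2 and 4 members lie between 0.583 and 0.730, while in library 2 all 10 lie between 0.124 and 1.30.

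The redundant count divided by the nonredundant count is given here as copies per read. The rule that separates the 2 counts is not given in the sources used here. In library 1, Dmd had 9480 redundant reads, or 23.3 per nonredundant read, and Auts2 had 8511, or 19.1. Wwox had 1020 (8.36 per nonredundant read), Macrod2 696 (5.66), Magi2 389 (2.95) and Pard3b 147 (1.52). Genes with more reads had more copies per read, so each gene was set beside the genes with between 0.5 and 2 times its nonredundant reads, whose median was 1.80 around Fhit and 5.62 around Macrod2. Auts2 and Dmd lay near the medians of those genes, 23.0 and 21.7. Pard3b lay low, with 17 of 174 such genes (9.77%) at fewer copies and a median of 4.32. Thus Pard3b and Macrod2 had close numbers of nonredundant reads and differed 4.73 times in redundant reads.

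Among the genes with few reads, Lrp1b stood high in library 1, with 136 redundant reads for 12 nonredundant ones (11.3 per read, above 332 of 351 genes of like read number). In library 2, Csmd1 had 242 redundant reads for 8 nonredundant ones, or 30.3 per read, above 341 of 348 such genes and above the library's total of 26.7. The other 9 members had 1.38 to 3.27 copies per read there. The direction of these genes with few reads depends on the count used. By redundant reads Lrp1b was 8.98 times as high in library 1, where its fold of nonredundant shares, library 1 over library 2, was 0.879. Csmd1 was, by redundant reads, 3.00 times as high in library 2.

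**Figure D4:**
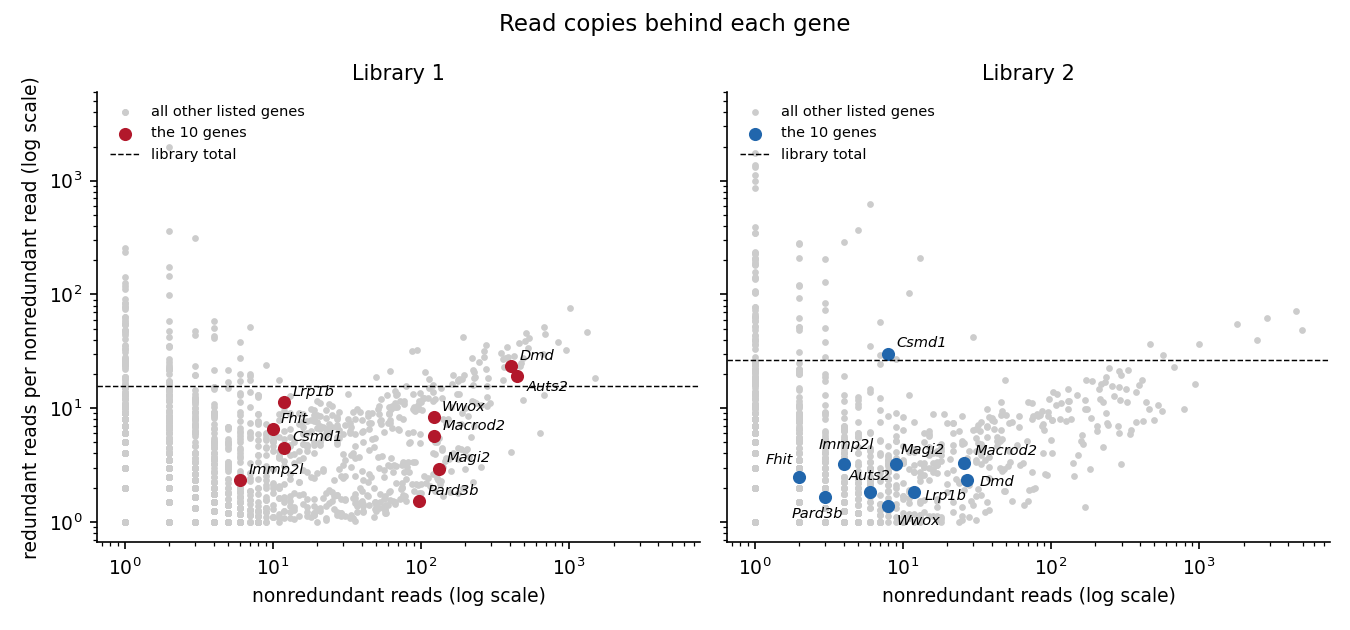
Redundant reads per nonredundant read (log axis) against nonredundant reads (log axis) of each listed gene, with library 1 on the left and library 2 on the right; coloured points are the 10 genes and the dashed line is the ratio of the library totals. In library 1 Dmd and Auts2 lie above that line at 23.3 and 19.1 and Pard3b lies at 1.52; in library 2 only Csmd1, at 30.3, lies above it.

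The nearest coding genes on each side and those inside the members' spans were read in the same tables. Genes lying inside a member were Tsga8 in Dmd, Flrt3 in Macrod2 and Lrrn3 in Immp2l, and 0 of these 3 were listed in either library. Flrt3 and Lrrn3 encode neuronal membrane proteins with leucine-rich repeats. Being 34.4 kb long or less, they are small targets beside their hosts.

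Of the 20 neighbouring genes, 11 were listed in library 1 and 6 in library 2, beside 19.9% and 15% of all genes. These neighbours had a median length of 105 kb, and few of them had many reads. Kif16b, a kinesin of endosome transport next to Macrod2, had 98 reads, all in library 1. Nrp2, the semaphorin receptor neuropilin 2 next to Pard3b, likewise had its 44 reads in library 1 alone. Ppp6c, a catalytic subunit of a protein phosphatase next to Lrp1b, had 1 read in library 1 and 110 in library 2. Galnt17 beside Auts2 had 9 and 2 reads, and the flanks of Dmd and Wwox had none. On the sides of Fhit, Cfap20dc had 3 and 4 reads and the receptor phosphatase gene Ptprg 7 and 3. Around Immp2l, Lrp1b, Csmd1 and Magi2, Dock4 had 5 and 1 reads, Kynu 8 and 0, Myom2 2 and 0, Mcph1 2 and 1, and Gnai1 3 and 0. Per 100 kb in library 1, Kif16b had 34.6 reads beside 6.16 for Macrod2, and Nrp2 had 38.1 beside 9.67 for Pard3b. The genes next to Dmd (38.5 and 20.6 kb) and Wwox (10.1 and 3.64 kb) are short, so the absence of reads there says little.

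Relatives and partners of the members were taken as whole lists. Among the 13 closest family members, 10 were listed in library 1 and 9 in library 2, and 3 and 1 had 10 or more reads. Of all 21035 genes, 19.9% and 15% were listed, and 2.37% and 1.4% had 10 or more reads. The family members had a median length of 162 kb. Macrod1, the mitochondrial relative of Macrod2 and a far shorter gene, had 277 reads in library 1 and 1 in library 2. Csmd2 had 97 and 2, and Pard3, the polarity protein related to Pard3b, had 88 and 2. Utrn, the dystrophin relative utrophin, had 4 and 8, and Fbrsl1, a relative of Auts2, had 1 and 12. The relatives with many reads in library 1 thus belonged to members of both kinds, since Csmd1 itself had 12 reads there and Macrod2 and Pard3b had 123 and 97.

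Partners were taken the same way, beside the 19.9% and 15% of all genes that were listed in libraries 1 and 2. The shares with 10 or more reads were 2.37% and 1.4%. Of 17 genes of the dystrophin-glycoprotein complex, 9 were listed in library 1 and 8 in library 2, and 4 and 0 had 10 or more reads. The syntrophin genes Sntb1 (20 and 2 reads), Sntg1 (10 and 4) and Sntb2 (12 reads in library 1 alone) and the sarcoglycan gene Sgcz (10 and 9) had the most reads. Per 100 kb in library 1 these were 7.38 for Sntb1, 1.06 for Sntg1, 15.3 for Sntb2 and 0.874 for Sgcz, beside 17.0 for Dmd. Of 13 polarity and junction partners of Magi2 and Pard3b, 8 and 4 were listed, and 2 and 0 had 10 or more reads. After Pard3 came the tight junction protein Tjp1 with 12 reads in library 1 alone, Magi1 with 5 and 1, Prkcz with 2 and 4 and Magi3 with 1 and 4. Of 11 Polycomb partners and relatives of Auts2, 2 and 1 were listed, Fbrsl1 and Pcgf3, the latter with 1 read in library 1. Of 11 relatives of Lrp1b in the lipoprotein receptor family, 6 and 3 were listed and none had 10 or more reads, with Lrp6, a Wnt co-receptor, first at 9 and 1, then Lrp2 with 3 and 1, and Lrp4 with 2 reads and Lrp1 with 1 in library 1 alone. The median length was 45.7 to 92.0 kb by list, but 3 genes of the dystrophin-glycoprotein list are among the 100 longest.

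Other fragile-site and very long genes were taken as lists in the same way. Of 24 other genes at common fragile sites, 22 were listed in library 1 and 21 in library 2, and 10 and 3 had 10 or more reads. By fold, 4 were at least 4 times as high in library 1 and 1 in library 2. Over all 5614 listed genes, 19.8% and 9.96% were so. Of the other 90 of the 100 longest genes, 92.2% and 86.7% were listed, and 44.4% and 20% had 10 or more reads. Dab1, an adapter of reelin signalling, had 137 reads, all in library 1. Gmds had 29 and 2 reads, Nbea 28 and 6, and Cntnap2, a gene longer than all members but Dmd, 19 and 14. The median of this list was 8.5 and 4 reads, against 109.5 and 8 over the 10 genes. Nothing is read from this gap, because the 10 genes were chosen partly for their reads. These medians are also not scaled to length. Of the 24 genes, 12 are among the 100 longest, as are all 10 members.

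Of 29 other very long neural genes, 28 were listed in each library, and 17 and 10 had 10 or more reads. By fold, 5 of these were at least 4 times as high in library 1 and 4 in library 2, beside 19.8% and 9.96% of all listed genes. Of this list, 25 genes are among the 100 longest, whose shares are given above. Sdk1 (235 and 4 reads), Prkg1 (220 and 7) and Rbfox1 (145 and 2) leaned to library 1, Nrxn3 (30 and 2878) leaned to library 2, and Cdh13 (224 and 243) had many reads in both. Their median was 10 and 5 reads.

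By the fold of its share, the pattern of the summed 10 genes, a log2 fold of 3.51 over 2 libraries, was most nearly shared by 5 of the other longest genes. These were Galntl6 (log2 fold 3.68, 36 and 2 reads), Astn2 (3.25, 59 and 5), Cntn5 (3.98, 98 and 5), Tenm2 (4.06, 217 and 11) and Marchf1 (4.57, 94 and 3). Likeness here is the distance between 2 log2 folds, each from a pair of pooled libraries.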

How the data were processed

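Splinkerette PCR products of transposon junctions from 4 samples in 2 libraries were sequenced, per the labels' protocols. The authors deposited 1 table per library with raw counts of nonredundant and redundant reads per gene. CASAVA, BWA and build mm9 are named in the submitters' processing notes; assignment to genes, filters and the definition of nonredundant: not given in the sources used here. A gene absent from a table counts as 0 reads.

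Genes were matched by transcript, symbol or unambiguous synonym to a RefSeq table of GRCm38.p6 (4182 of 4184 and 3167 of 3168 matched), which gave lengths and neighbours and whose gene coordinates are not printed. Shares, folds with 0.5 reads added, reads per 100 kb and Clopper-Pearson intervals were computed with Python 3.11.15, pandas 2.3.3 and scipy 1.17.1. Folds and intervals were tested on simulated data. For the folds, reads were added to every simulated gene, so the few reads of most genes here were not covered. For the intervals, simulated reads were independent and at a single share. Genes with few reads and repeated copies of a read were thus not covered there. No test was made, since each library is a single pool. The 10 genes and the 7 lists were chosen with earlier results of these data known. Named are all 10 genes, up to 5 members per list by summed reads, neighbours with reads and the 5 longest genes of most like fold; the unlisted genes inside members, Nrxn3 beside density and the genes of the other observations were added after their values were seen. Some genes that the rule gives are not reported here.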

Additional observations from a re-analysis of the deposited data

How the results depend on the processing

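Every library is 1 pool, so depth per sample is unknown, and genes under about 10 reads have wide intervals. No paired analysis was possible because the tables hold no column per sample and no test was made. All 10 genes were listed in both libraries at a minimum of 1 or 2 reads. The summed share in library 1 (2.46%) was 2.94% with the 10 genes with most reads left out of the total, and ran from 1.66% to 2.45% with each gene left out in turn. In library 2 (0.215%) it was 0.0374% by redundant reads, 0.373% without the leading genes, and 0.160% to 0.211% with each gene left out. The fold between libraries (11.4) was 62.5 by redundant reads, 7.87 without the leading genes, and 8.17 to 13.8 with each gene left out. With cuts chosen after the data were examined, it was 6.28 without Auts2 and Dmd and 1.35 over the 4 genes under 50 reads in library 1, a split by the reads that enter the fold, which supports nothing. The number of members in library 2 at 10 or more reads (3) became 10, 7 and 0 at minima of 2, 5 and 50, and 8 at 10 redundant reads. The median per 100 kb was 20.4 (library 1) and 1.30 (library 2) by redundant reads. Copies per read in library 1, 15.0 over the summed reads, were 6.08 as a median over genes, and 11.5 to 16.3 with each gene left out. In library 2 they were 4.63 summed and 2.52 to 5.42 with each gene left out, lowest without Csmd1. Of 40 alternative folds of single genes, 5 left the counting interval in the same direction and 4 turned. By redundant reads Auts2 was at 1096, Dmd at 221, Wwox at 131 and Macrod2 at 12.1, and without the leading genes Dmd was at 8.95. Without the leading genes, Immp2l was at 0.875 and Csmd1 at 0.891, and by redundant reads Lrp1b was at 8.98 and Csmd1 at 0.333. The redundant count keeps repeated reads, and the cause of these shifts was not tested.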

Other observations

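Several of the other longest genes had their reads mainly in library 2, unlike the 6 genes with many reads in library 1. Sugct, a mitochondrial CoA-transferase gene, had 11 reads in library 1 and 285 in library 2. Rbms3, an RNA-binding protein gene, had 6 and 82, and the ion channel gene Asic2 had 40 and 85. Nckap5 had 114 and 212 reads, with many reads in both libraries. Per 100 kb, Sugct had 34.0 reads in library 2 and Nckap5 23.1, where the 10 genes reached at most 1.30. These genes were chosen after their values were seen.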
